A study of Mus musculus with 2 samples.

Results

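Stromal progenitor surface markers are the genes whose proteins, alone or in combination, are used to recognise or sort mesenchymal stromal cells and their progenitors. The 10 genes described here, Ly6a, Thy1, Eng, Nt5e, Cd44, Vcam1, Mcam, Lepr, Nes and Emb, were chosen by name, and all 10 were found among the 21849 genes of the count files. They were followed through 2 single-cell libraries of costal-cartilage-derived stem cells (CDSCs), summed over all cells, cell by cell, and across clusters that had been made without them.

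Stromal progenitors have no single defining surface protein, so they are recognised by combinations. THY1 (CD90), ENG (CD105) and NT5E (CD73) form a classical set for cultured mesenchymal stromal cells. CD44 is a hyaluronan receptor that such cells usually carry, and SCA1, the product of Ly6a, is used to enrich mouse progenitors. For the mouse mesenchymal stem cells it used, the study reported other proteins than the classical set, among them CD44 and SCA1. LEPR, the intermediate filament protein Nestin (which lies inside the cell), VCAM1, MCAM (CD146) and EMB are used to describe stromal and perivascular cells of the bone marrow niche, where several of them take part in contacts with haematopoietic cells.

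CDSCs had been released with collagenase from the rib cartilage of newborn C57BL/6J mice and sorted as cells without CD45, a surface protein of blood cells, and with CD51, an integrin subunit. The primary group was 1 library of such cells, and the cultured group was 1 library of CDSCs at passages 2 to 3. The donors carried either the CD45.1 allele or a ZsGreen reporter, and which animals, and how many, had been pooled for each library was not given in the sources used here. The labels name bone marrow as the tissue of both libraries, while the study's methods name costal cartilage. No other treatment separated the groups. Neither group was replicated, so no difference below could be set against a spread between libraries and no test was performed. Every interval is an exact 95% interval and covers counting error only.

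Each value was a count of UMIs (unique molecular identifiers, the tags that tell captured transcripts apart) for a gene in a cell. After the cell filter, 11746 primary cells with 137148874 UMIs and 5338 cultured cells with 330129909 UMIs were kept, at medians of 10026.5 and 56864.5 UMIs per cell. The filter left out 5460 of 10798 cultured barcodes (50.6%), nearly all for under 1000 UMIs, and 150 of 11896 primary barcodes (1.26%). The libraries shared 32 barcode sequences, 15 of them kept in both. The donors differed: all 60957 ZsGreen UMIs were primary, and the Y-linked gene Uty was at 0.0802 and 61.2 CPM (UMIs of the gene scaled to the same total in each library). Culture, donor and library can therefore not be told apart in any comparison below. Itgav, which encodes CD51, was at 92.5 and 109 CPM, and Ptprc, which encodes CD45, at 0.620 and 0.345 CPM. A count of 3 corresponded to 0.0219 CPM of the primary UMIs and to 0.00909 CPM of the cultured UMIs.

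The markers did not move as a block. The level of 7 of the 10 genes was higher in the cultured library, a share close to the 64.5% of the 9115 genes reaching 10 CPM in at least 1 library that were higher there. Of the larger differences, 4 of the 10 (Cd44, Vcam1, Thy1 and Nes) were at least 4-fold higher in the cultured library, against 10.6% of all such genes, and 6 of the 10 were at least 2-fold higher, against 27.2%. In the other direction, Nt5e, Mcam and Lepr, 3 of the 10, were lower by 2-fold or more after culture, against 12.5% of all such genes, and only Mcam was lower by 4-fold or more, against 5.73%. The median log2 ratio, cultured over primary, was 1.74 over the 10 members and 0.37 over the 9115 genes. Thy1 and Lepr were under 10 CPM in both libraries and would not have entered the comparison set, which leaves 8 members in it. Scaling by TMM, which centres the bulk of the genes, lowered every log2 ratio by 0.20 and reversed the sign of no member.

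**Figure D1:**
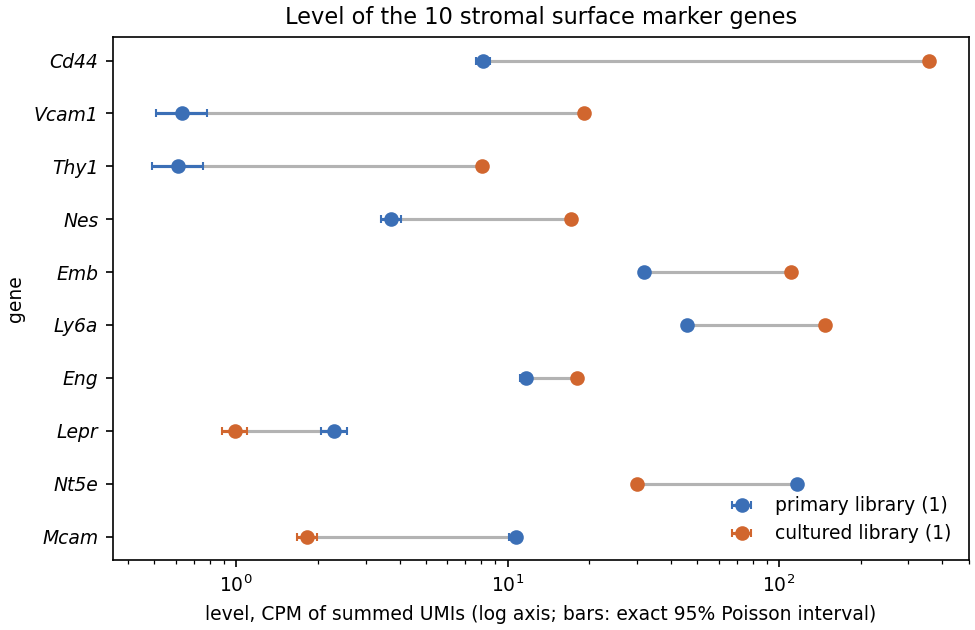
Level of each marker gene in the primary (blue) and cultured (orange) library, in CPM of the summed UMIs on a log axis, with exact 95% Poisson intervals. Genes are ordered by their ratio, from Cd44 at 44.1-fold higher in the cultured library to Mcam at 5.85-fold lower.

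The adhesion receptor genes Cd44 and Vcam1 showed the widest differences. Cd44 (ENSMUSG00000005087, chr2:102811141-102901665 of GRCm38, minus strand) was at 8.11 CPM in the primary library (interval 7.64 to 8.60, 1112 UMIs) and at 358 CPM in the cultured library (interval 356 to 359.8, 118105 UMIs). The log2 ratio was 5.46 (interval 5.38 to 5.55), which placed it at percentile 98.6 of all genes compared. Vcam1 (ENSMUSG00000027962, chr3:116109949-116129688, minus strand), the adhesion molecule that binds the integrin VLA-4 on blood cells, was close to absent from the primary library, with 87 UMIs at 0.634 CPM (interval 0.508 to 0.782). In the cultured library it reached 19.1 CPM (interval 18.6 to 19.5), 30-fold higher, with a log2 ratio of 4.91 (interval 4.60 to 5.23).

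The 2 small glycoproteins held in the membrane by a lipid anchor were also higher in the cultured library. Ly6a (ENSMUSG00000075602, chr15:74994877-74998031, minus strand), which encodes SCA1, was well represented in both, at 45.9 CPM (interval 44.8 to 47.0) and 148 CPM (interval 146 to 149), with a log2 ratio of 1.68 (interval 1.65 to 1.72). Thy1 (ENSMUSG00000032011, chr9:44043384-44048579, plus strand) had only 84 UMIs in the primary library, at 0.612 CPM (interval 0.489 to 0.758), and was at 8.06 CPM (interval 7.76 to 8.38) in the cultured one. Its log2 ratio was 3.72 (interval 3.41 to 4.05). A single cultured cluster carried much of that ratio: without the 187 cells with Ptn and Itga8 among their leading genes, described below, it was 2.65.

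The remaining members of the classical set went in opposite directions. Nt5e (ENSMUSG00000032420, chr9:88327197-88372092, plus strand), the ecto-enzyme that makes adenosine from AMP, was the most abundant member of the primary library at 117 CPM (interval 115 to 118) and stood at 30 CPM (interval 29.4 to 30.6) in the cultured one, 3.89-fold lower, with a log2 ratio of -1.96 (interval -2 to -1.92). Under TMM scaling it passed 4-fold as well. Eng (ENSMUSG00000026814, chr2:32646595-32682669, plus strand), a co-receptor for ligands of the TGF-beta family, differed least of the 10, at 11.7 CPM (interval 11.1 to 12.2) and 18.0 CPM (interval 17.6 to 18.5), with a log2 ratio of 0.63 (interval 0.55 to 0.71) and a percentile of 60.4. Nt5e thus had the highest level of Thy1, Eng and Nt5e in both libraries and was the one of them with a ratio below 0.

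The perivascular and niche markers were mixed. Mcam (ENSMUSG00000032135, chr9:44134469-44142727, plus strand), an adhesion molecule of endothelial cells and pericytes, was at 10.7 CPM in the primary library (1465 UMIs, interval 10.1 to 11.2) and at 1.83 CPM in the cultured library (603 UMIs, interval 1.68 to 1.98). Its log2 ratio of -2.55 (interval -2.69 to -2.41) was the lowest of the 10, at percentile 4.22. Lepr (ENSMUSG00000057722, chr4:101717404-101815352, plus strand), the leptin receptor that marks adult marrow stroma, was scarce in both libraries at 2.30 CPM (interval 2.06 to 2.57) and 0.991 CPM (interval 0.886 to 1.10), a log2 ratio of -1.22 (interval -1.45 to -0.99). Nes (ENSMUSG00000004891, chr3:87971078-87980451, plus strand) was at 3.73 CPM (interval 3.41 to 4.06) and 17.2 CPM (interval 16.8 to 17.7), 4.62-fold higher in the cultured library. Emb (ENSMUSG00000021728, chr13:117208536-117274415, plus strand), an immunoglobulin-family glycoprotein that accompanies monocarboxylate transporters to the membrane, was at 31.7 CPM (interval 30.8 to 32.7) and 111 CPM (interval 109.6 to 112), 3.49-fold higher.

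The order of the levels changed with the library. In the primary library Nt5e led, followed by Ly6a and Emb, then Eng, Mcam and Cd44, and Nes, Lepr, Vcam1 and Thy1 came last. The intervals of Eng and Mcam overlapped there, as did those of Vcam1 and Thy1. In the cultured library Cd44 led, followed by Ly6a, Emb and Nt5e, and Vcam1, Eng, Nes, Thy1, Mcam and Lepr came after them, and of neighbours in that order only Eng and Nes had overlapping intervals. These are levels of 3′ UMIs, which do not scale with transcript length. Of the windows of 90 bases in the last 500 bases of each member's transcripts, none was shared with another gene for 8 members, 2.56% were shared with Gm12797 for Lepr and 2.87% with Rnf7 for Emb, so cross-counting between close copies could touch little of these values.

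The 250 bases before the RefSeq start were read for the members in the RefSeq promoter table (GRCm38.p6), which matched 7 of the 10. Those of the member with the highest ratio and of the pair with the lowest ratios are shown, 5′ to 3′ on the strand of the gene and ending just before the RefSeq start. They were picked by their ratios and for their difference in base composition. By the GENCODE coordinates given above, the Cd44 window lay wholly before the gene. The Nt5e window lay wholly inside the gene and the Mcam window mostly so. The windows therefore do not cover like positions of the genes. Capitals mark GC boxes, read as GGGCGG on either strand with overlaps allowed.
Cd44 (chr2:102901666-102901915, minus strand): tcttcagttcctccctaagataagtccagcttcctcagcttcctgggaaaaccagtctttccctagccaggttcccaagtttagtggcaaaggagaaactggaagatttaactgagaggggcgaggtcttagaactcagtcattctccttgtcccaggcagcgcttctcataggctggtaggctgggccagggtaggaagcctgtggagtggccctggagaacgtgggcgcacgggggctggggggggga
Nt5e (chr9:88327359-88327608, plus strand): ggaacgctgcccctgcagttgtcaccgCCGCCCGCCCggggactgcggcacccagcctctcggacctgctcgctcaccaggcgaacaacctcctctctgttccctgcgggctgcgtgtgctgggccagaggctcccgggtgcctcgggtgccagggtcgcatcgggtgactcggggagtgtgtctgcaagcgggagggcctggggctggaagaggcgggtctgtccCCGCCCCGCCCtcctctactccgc
Mcam (chr9:44134408-44134657, plus strand): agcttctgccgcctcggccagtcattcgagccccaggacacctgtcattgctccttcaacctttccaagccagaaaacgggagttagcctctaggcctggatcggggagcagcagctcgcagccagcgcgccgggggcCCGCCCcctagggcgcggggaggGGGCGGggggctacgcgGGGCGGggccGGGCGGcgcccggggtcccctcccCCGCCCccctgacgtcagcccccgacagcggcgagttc
The Cd44 window held no GC box, 5 CpG dinucleotides and 56.4% G and C, whereas the Nt5e window held 4 GC boxes, 21 CpG and 72.0% and the Mcam window 5 GC boxes, 25 CpG and 73.6%. A GC box occurred in 32.7% of all 32851 windows of the table, whose medians were 6 CpG and 52.4% G and C. None of the 3 windows held TATAAA, found in 12.4% of all windows, or the AP-1 sequence TGANTCA, found in 6.75%, on either strand. The other members were mixed. The Eng and Emb windows, of genes higher in the cultured library, held 0 and 1 GC boxes and 4 and 6 CpG, close to the Cd44 window. The Nes window, also of a gene higher there, held 2 GC boxes and 15 CpG. The 2 Lepr windows, of a gene lower there, held 0 and 1 GC boxes and 10 CpG each. These letters are a description of the windows and were not related to the ratios by any test.

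Cell by cell, the shares followed the summed levels once depth was matched. For this, 5000 UMIs were drawn from each cell, for which 10959 primary and 4543 cultured cells were deep enough and 787 and 795 were not. A UMI of Cd44 was then found in 2.66% (interval 2.37% to 2.98%) of the primary and 69.1% (interval 67.8% to 70.5%) of the cultured cells. Vcam1 was found in 0.246% and 7.92%, Thy1 in 0.255% and 2.62%, and Nes in 1.43% and 6.58%, so these 3 remained minority transcripts of cultured cells at this depth. Ly6a was found in 12.9% of primary cells (interval 12.3% to 13.5%) and 32.7% of cultured cells (interval 31.3% to 34.1%), Emb in 12.3% and 41.1%, and Eng in 5.51% and 8.69%.

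The markers with lower summed levels were also found in fewer cultured cells at matched depth. Nt5e was found in 28.5% of primary cells (interval 27.7% to 29.4%) and 11.5% of cultured cells (interval 10.6% to 12.5%). Mcam was found in 4.61% and 0.858%, and Lepr in 1.08% and 0.418%. Without thinning, the shares of Nt5e, at 43.1% and 52.2%, and of Lepr, at 1.92% and 4.23%, had the opposite order to their levels in CPM, and no order is read from them, since the median cultured cell held 56864.5 UMIs against 10026.5. Of the 10 markers, the thinned primary cell had a mean of 0.694 and the cultured cell a mean of 1.82. None of the 10 was found in 47.0% of primary and 7.86% of cultured cells, and 4 or more were found together in 0.210% and 5.33%.

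**Figure D2:**
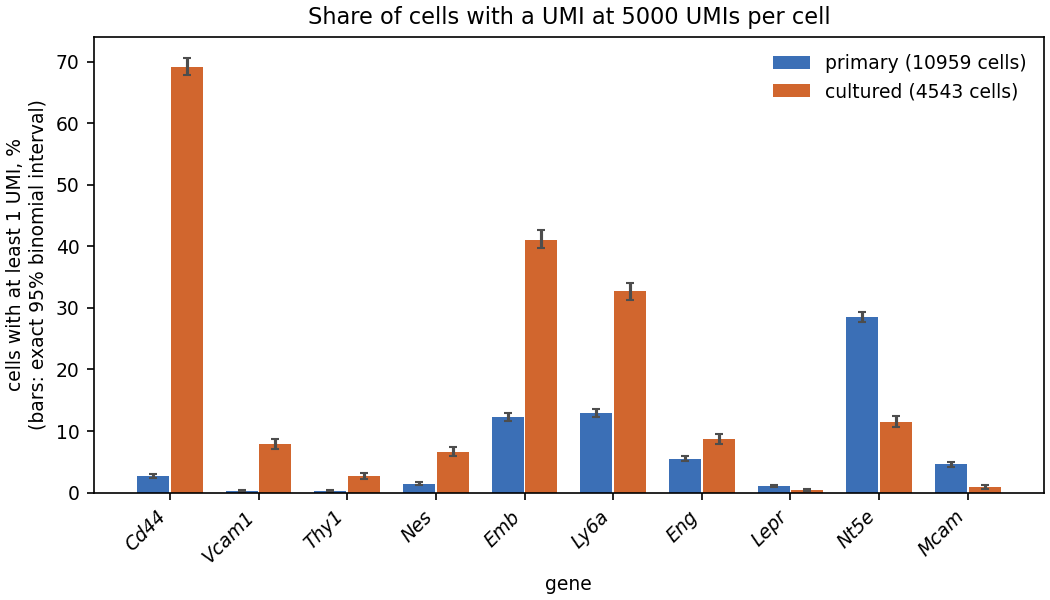
Percentage of cells in which each marker had a UMI after thinning to 5000 UMIs per cell, for 10959 primary (blue) and 4543 cultured (orange) cells, with exact 95% binomial intervals. Cd44 goes from 2.66% to 69.1%, while Nt5e goes from 28.5% to 11.5%.

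Cultured cells were deep enough to be thinned to 20000 UMIs, which kept 4156 of them and left out 1182. At that depth Cd44 was found in 94.3% of cells, Emb in 78.5%, Ly6a in 59.9%, Nt5e in 34.9%, Eng in 26.9%, Vcam1 in 22.4%, Nes in 18.5%, Thy1 in 5.94%, Mcam in 3.39% and Lepr in 2.09%. The UMIs were spread unequally. The 1% of cells with the most of a gene held 5.38% of the Cd44 UMIs and 6.94% of the Emb UMIs, but 46.0% of the Thy1, 42.4% of the Mcam and 54.5% of the Lepr UMIs, where few cells had any. Ly6a, although found in most cells, had the highest variance relative to its mean, a ratio of 8.88 against 6.13 for Cd44 and 1.44 for Eng, and 1 cell held 776 of its UMIs before thinning.

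In the primary library, the cells that carried the markers differed from gene to gene. Clustering without the members and their related genes gave 9 chondrocyte-like clusters with 11456 cells and 1 cluster of 290 cells outside them. The 290 cells held 1.91% of the library's UMIs but 44.0% of its Thy1 and 40.2% of its Vcam1 UMIs, against 14.5% of Cd44, 9.70% of Eng, 5.39% of Mcam, 5.06% of Lepr, 4.31% of Nes, 2.34% of Ly6a, 1.09% of Nt5e and 1.08% of Emb. Without the small classes and the shallow cultured clusters, the log2 ratio of Vcam1 was 5.63 and that of Thy1 4.54. In the chondrocyte-like cells themselves Thy1 was at 0.349 CPM (47 UMIs, interval 0.257 to 0.465) and Vcam1 at 0.387 CPM (52 UMIs, interval 0.289 to 0.507). The 290 cells were clustered again, a step chosen after their values were seen. They held 183 mesenchymal fibroblast-like cells with Col1a1 and Postn, where Thy1 was at 14.8 CPM (24 UMIs) and Vcam1 at 12.4 CPM (20 UMIs). All 290 cells together were at 14.1 and 13.3 CPM. A further 36 cells, unnamed, had both the mast cell genes Tpsb2 and Mcpt4 and the pericyte genes Rgs5 and Notch3 among their leading genes. Thy1 was at 24.6 CPM (13 UMIs) and Vcam1 at 13.3 CPM (7 UMIs) in them, and which of these cells carried the UMIs was not tested. In 46 unnamed cells led by Chodl and Cilp, Thy1 had 0 UMIs and Vcam1 was at 25.9 CPM (5 UMIs).

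The 25 endothelial-like cells had the highest level of several vascular members. Eng was at 339 CPM there (interval 275 to 414) against 10.7 CPM in chondrocyte-like cells, Ly6a at 294 CPM against 45.7, Mcam at 126 CPM against 10.3 and Nes at 49.0 CPM (14 UMIs) against 3.63. Thy1 had 0 UMIs there, for which the exact interval reached 12.9 CPM. Cd44 was highest in 46 unnamed cells led by Chodl and Cilp, at 238 CPM (46 UMIs, interval 175 to 318).

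**Figure D3:**
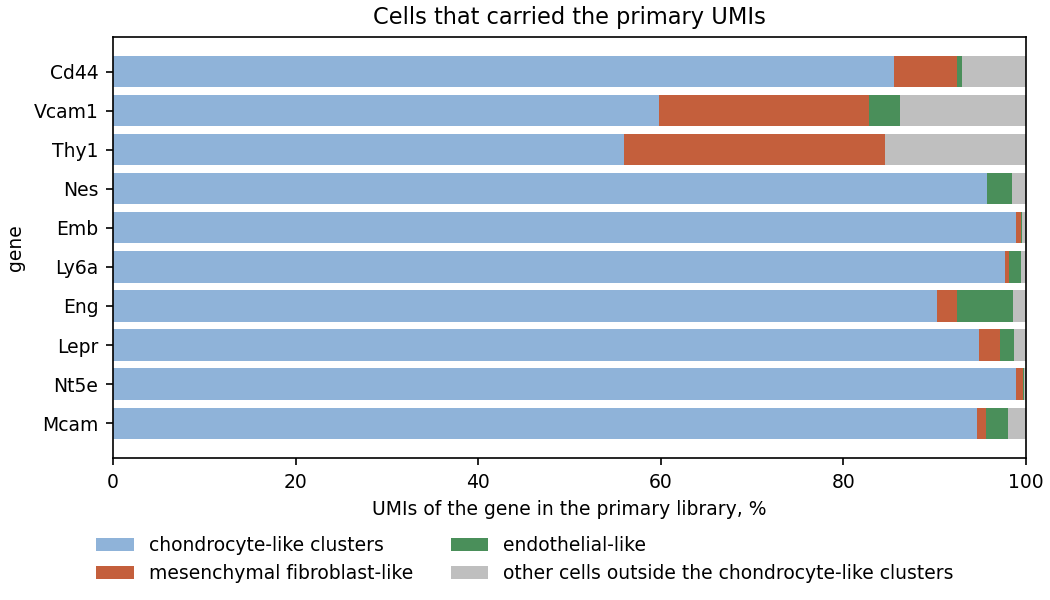
Share of each marker's primary UMIs held by chondrocyte-like cells (blue), mesenchymal fibroblast-like cells (red), endothelial-like cells (green) and other cells outside the chondrocyte-like clusters (grey). The part outside the blue bars is 44.0% for Thy1 and 40.2% for Vcam1 and 1.08% for Emb.

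Among the chondrocyte-like clusters, Ly6a and Lepr had their highest levels in different clusters. Ly6a was highest in 1416 cells led by Acta2, Aoc2 and Grem1, at 114 CPM (interval 109.7 to 119), and lowest in 2122 cells led by Tll1 and Clu, with Prg4 (lubricin, of the joint surface) among their leading genes, at 4.27 CPM (interval 3.37 to 5.34). This 26.7-fold span was also seen in the thinned shares, at 35.3% and 1.76% of cells. The median depths of the clusters were 13188 and 7519.5 UMIs per cell. Lepr had the opposite order in the same clusters, at 0.391 CPM (8 UMIs) and 8.60 CPM (155 UMIs, interval 7.30 to 10.1). It was found in only 0.289% and 3.35% of their thinned cells. The Clu and Prg4 cluster held 49.1% of all primary Lepr UMIs. A second cluster of 803 cells led by Slc35f1 and Runx3 held another 18.0% of them at 5.50 CPM, and had a Ly6a level of 7.72 CPM.

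A cluster of 1494 chondrocyte-like cells with Slc22a4 and Srxn1 among their leading genes held 41.5% of the primary Cd44 UMIs at 22.2 CPM (interval 20.2 to 24.4). The Slc35f1 and Runx3 cluster was close to it at 18.8 CPM (interval 16.3 to 21.7, 17.5% of the UMIs), with an overlapping interval, the dividing cells led by Pbk and Cenpf were at 10.5 CPM, and the other 6 chondrocyte-like clusters lay between 1.39 and 3.13 CPM. The Slc22a4 and Srxn1 cells had the highest Nt5e level, 184 CPM (interval 179 to 190.4), and the highest Nes level of the chondrocyte-like clusters, 7.62 CPM (interval 6.48 to 8.90). Nt5e was found in every primary cluster at 40.3 CPM or more. Emb and Mcam had the narrowest spans over all 10 clusters, 2.48-fold and 3.63-fold, and the intervals of neighbouring clusters in the order of levels overlapped for 9 of 9 and 8 of 9 pairs.

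In the cultured library no cluster was chondrocyte-like, and 11 of 12 stayed unnamed, so they are described by their leading genes. The 8 clusters compared held at least 100 cells of like depth. The cells had been grouped without the 10 markers, which were then read in each cluster. Thy1 was concentrated in 187 cells with Ptn and Itga8 among their leading genes. These were 3.50% of the cells and held 54.2% of the Thy1 UMIs, at 112 CPM (interval 107 to 118), and Thy1 was found in 60.6% of them after thinning to 20000 UMIs. The next highest were 320 cells led by histone genes such as H1f5, at 16.4 CPM, and 454 cells led by the mitosis genes Cenpf and Aspm, at 10.5 CPM, found in 9.27% and 10.5% of their cells. The other 5 of these clusters lay between 1.09 and 2.37 CPM. Free RNA gives cells UMIs of genes that they do not express, and gives all clusters a like low share. The lowest share of cells with Thy1 was 1.55%, in the Cytl1 and Gpc3 cluster, at a median of 50112 UMIs per cell before thinning.

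The Ptn and Itga8 cells stood at an end of the range for several other markers. Vcam1 was at 77.6 CPM (interval 72.8 to 82.5) and found in 61.1% of thinned cells, against 8.09 to 20 CPM in the others of these clusters. Of the 8 clusters, Ly6a at 269 CPM, Eng at 31.0 CPM and Mcam at 8.11 CPM were highest there too, although the Eng interval overlapped that of the Mmp13 cluster. By the share of thinned cells Ly6a was not highest there, at 62.3% against 71.6% in the H2bc4 and Klk8 cluster and 70.2% in the Nr5a2 and Barx1 cluster. Nt5e was lowest there, at 8.50 CPM (interval 6.98 to 10.2), against 47.9 CPM (interval 46.4 to 49.5) in 936 cells led by Hmcn1 and Il1rl1. The Ptn and Itga8 cells had a median of 56446 UMIs per cell, close to that of the library.

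Others of the 8 clusters had other members at their highest. Cd44 had its top level, 507 CPM (interval 502 to 512), in the Hmcn1 and Il1rl1 cells and its lowest, 212 CPM (interval 206 to 218), in 377 cells led by Mmp13, a collagenase gene of cartilage remodelling. The Mmp13 cells had the highest Emb level, 255 CPM (interval 248 to 262), and the highest Lepr level, 3.31 CPM (66 UMIs, interval 2.56 to 4.21). Nes was highest in 276 cells led by Nr5a2 and Barx1, at 35.4 CPM, where Vcam1 was lowest, and in the H1f5 cluster, at 32.0 CPM. Ly6a ran from 73.1 CPM in 680 cells led by Cytl1 and Gpc3 to the 269 CPM above, and 1151 cells led by H2bc4 and Klk8 held 37.8% of its UMIs at 209 CPM.

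Shallow and haematopoietic-like cells are given apart, as are 54 cells with Lars2 and Cfap157 among their leading genes. These 54 had a median of 20255.5 UMIs per cell and a median mitochondrial share of 7.16%. Their Cd44, at 816 CPM (interval 772 to 863), and Nt5e, at 71.4 CPM (interval 58.7 to 86.0), lay above every cluster compared before. Their Ly6a, at 19.5 CPM (30 UMIs), lay below every one of those. A cluster of 861 cells with a median of 1276 UMIs per cell and a mitochondrial share of 0.339% had a Ly6a level of 383 CPM and a Cd44 level of 136 CPM. These levels rested mainly on 129 of its cells with 5000 UMIs or more, which held 80.3% of its UMIs, with Ly6a at 413 CPM and Cd44 at 103 CPM. In its other 732 cells Ly6a was at 258 CPM (interval 228 to 290.4) and Cd44 at 274 CPM (interval 243 to 307). The 16 haematopoietic-like cells, with Ptprc and Pf4, had the highest Nes level, 178 CPM (86 UMIs, interval 143 to 220.2). Their Ly6a was at 27.0 CPM and Nt5e at 2.07 CPM (1 UMI).

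**Figure D4:**
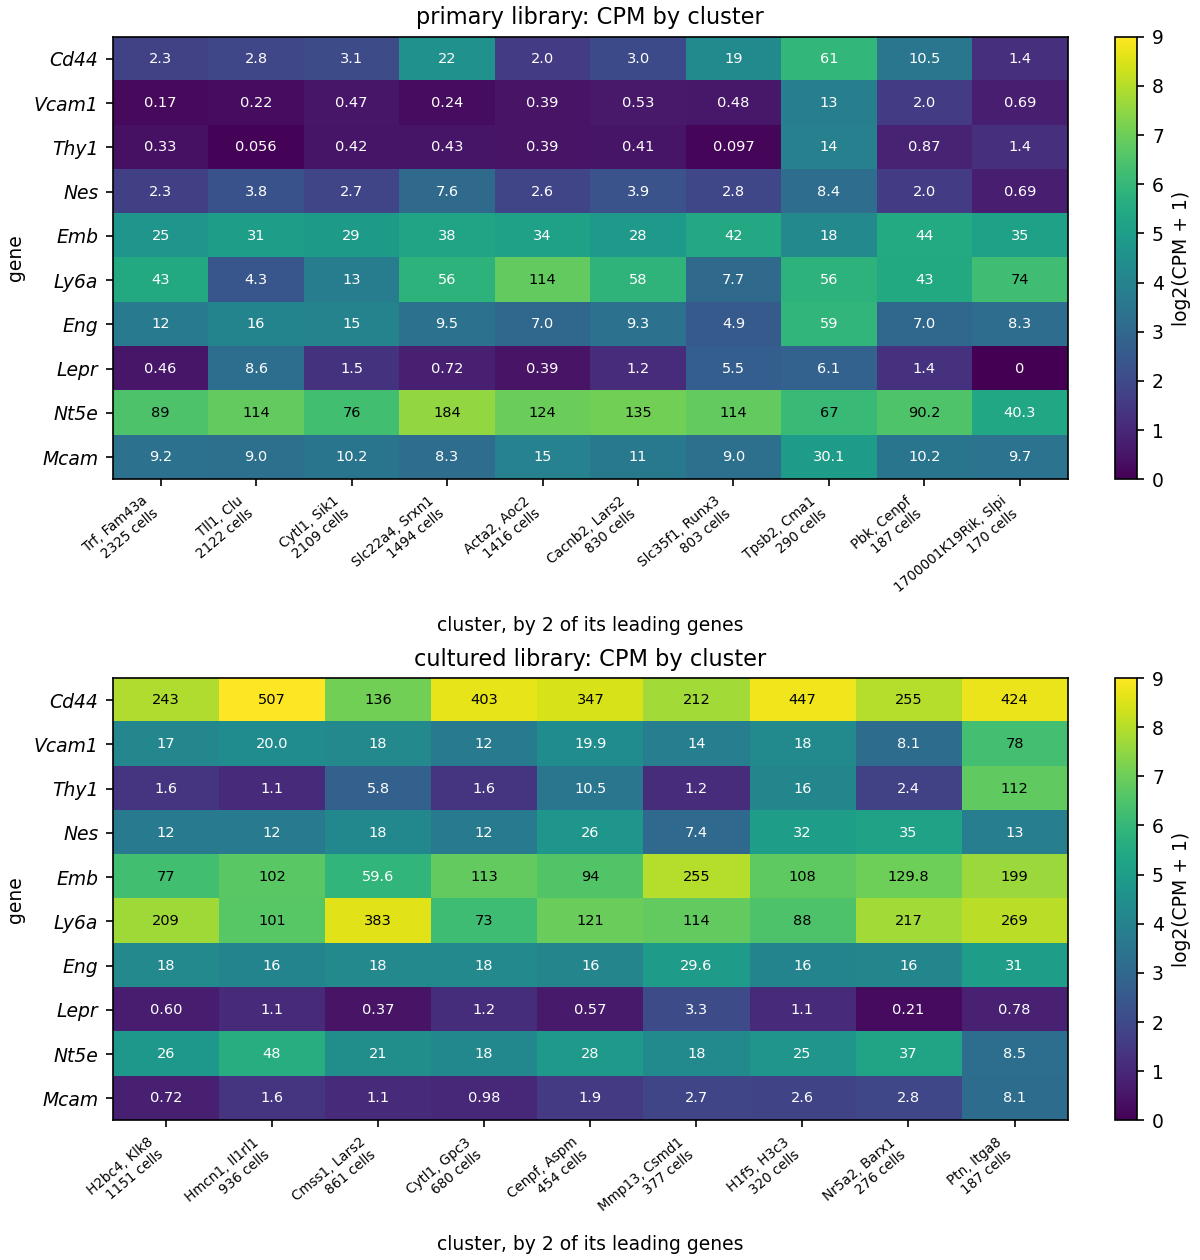
Level of each marker in CPM (numbers) by cluster, for the primary (top) and cultured (bottom) library, coloured by log2(CPM + 1), for clusters of at least 100 cells. Clusters are named by 2 of their leading genes, and the Ptn and Itga8 column shows Thy1 at 112 and Nt5e at 8.50 CPM, while the Cmss1 and Lars2 column holds mostly shallow cells.

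The classical combination was rarely seen in 1 cell. At 5000 UMIs per cell, 1 primary cell of 10959 (0.00912%) held Thy1, Eng and Nt5e together, and 0 cultured cells of 4543 did, a share of 0 with an exact interval up to 0.0812%. At 20000 UMIs per cell the combination was found in 15 of 4156 cultured cells, 0.361% (interval 0.202% to 0.595%), where the product of the separate shares was 0.557%. Such counts measure cells with a captured UMI of each gene and are no measure of the proteins. Thy1 and Nt5e were found together in 1.44% of these cells, 0.696 times the product of their shares, and Thy1 and Vcam1 in 3.08% (interval 2.58% to 3.65%), 2.32 times the product. Their Pearson correlation of 0.25 across the 4156 cells was the highest of any member pair, and the other pairs lay between -0.09 and 0.14.

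Pairs were found more often than this set of 3, as fewer genes had to be captured. Eng and Nt5e were found together in 1.35% of primary cells, 0.860 times the product of their shares, and in 0.880% of cultured cells, 0.878 times, at 5000 UMIs. Ly6a and Pdgfra, a pair used to sort mouse mesenchymal progenitors, were found together in 0.620% of primary and 8.96% of cultured cells at 5000 UMIs, 0.675 and 0.878 times the product, and in 37.0% of cultured cells at 20000 UMIs, 0.961 times. Ly6a with Cd44 was found in 0.310% and 21.4%, 0.904 and 0.944 times the product. Ly6a with Nt5e and without a UMI of Eng was found in 3.91% of primary cells (interval 3.55% to 4.29%) and 3.30% of cultured cells (interval 2.80% to 3.86%), whose intervals overlapped. These shares were 1.13 and 0.958 times the product, and at 20000 UMIs the cultured share was 15.9%, 1.04 times. Most cells had no Eng UMI at 5000 UMIs, so these shares do not identify cells that lack Eng.

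The genes most like each member across cells were sought among genes found in at least 10% of thinned cells. In primary cells, Ly6a was most like Cst3 (r = 0.30), A2m (r = 0.28) and Aoc2 (r = 0.24) over 10959 cells, and no gene reached an r of 0.2 with Nt5e or Emb. In the 4156 cultured cells, Ly6a was most like its neighbour in the Ly6 family, Ly6c1 (r = 0.35), and the metalloproteinase inhibitors Timp2 (r = 0.31) and Timp1 (r = 0.27). Cd44 was most like Lpp (r = 0.39), Hmga2 (r = 0.35) and Iqgap1 (r = 0.34), Emb like the matrix genes Mgp (r = 0.31) and Comp (r = 0.28), Nt5e like Ptgs2 (r = 0.23) and Vcam1 like Ptn (r = 0.22). All of these values are from cells of 1 library at equal depth, and they are descriptions of weak relations.

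The genes around the markers were read from lists of their partners and of other surface proteins. Of 20 other stromal surface genes, 18 had at least 10 CPM in either library, of which 10 were at least 2-fold higher in the cultured library, 5 at least 2-fold lower and 3 within 2-fold. Over all 9115 genes the shares were 27.2% and 12.5%, and the median log2 ratio was 0.37 beside 1.39 for this list. Cd248 (endosialin) went from 1.33 to 79.4 CPM (log2 ratio 5.90, interval 5.69 to 6.12), Cdh2 (N-cadherin) from 0.853 to 20 CPM and Pdgfra from 15.9 to 85.6 CPM. Cd200, an immune-regulatory glycoprotein also used to mark skeletal stem cells, went from 76.6 to 0.606 CPM (log2 ratio -6.98, interval -7.19 to -6.78), and Cspg4 (NG2), a pericyte marker like Mcam, from 161 to 40.7 CPM.

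Ligands and partners of the members were divided. Of 31 such genes, 16 had at least 10 CPM, of which 7 were at least 2-fold higher in the cultured library, 4 at least 2-fold lower and 5 within 2-fold, again beside 27.2% and 12.5% of all genes. The median log2 ratio of 0.33 was close to the 0.37 of all genes. Around Cd44, the hyaluronan synthase genes Has1 (20.7 to 3.85 CPM) and Has2 (33.3 to 6.62 CPM) were lower in the cultured library while the CD44 ligand Spp1 (osteopontin) went from 53.1 to 6573 CPM. Around Nt5e, Entpd1 (CD39), which makes its substrate AMP, went from 3.41 to 0.354 CPM and the adenosine transporter gene Slc29a1 from 111 to 39.7 CPM, in the direction of Nt5e itself, and the receptor gene Adora2b went from 0.372 to 3.60 CPM. Around Emb, its transporter partner Slc16a1 went from 64.8 to 26.6 CPM, opposite to Emb, whereas Slc16a3 went from 10.1 to 15.1 CPM, in the direction of Emb, and Slc16a7 was at 2.92 and 2.96 CPM. Its relative Bsg (basigin) went from 605 to 1397 CPM. The filament partner of Nestin, Vim (vimentin), went from 171 to 2656 CPM, and the VCAM1 receptor gene Itga4 was under 1 CPM in both libraries. Lep, the ligand of the leptin receptor, had 1 UMI and 0 UMIs.

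Markers that stromal cells are expected to lack were mostly low, but their levels were not set apart from those of the members. Of 8 such genes only Cd14 reached 10 CPM, going from 15 to 8.71 CPM, and Cd34 was at 0.962 and 0.900 CPM. In the primary library Cd14 lay below Nt5e, Ly6a and Emb and above the other members, and Ptprc, at 0.620 CPM, was close to Thy1 and Vcam1. In the cultured library Cd14 lay above Thy1, Mcam and Lepr and below the other members. Pecam1 went from 4.45 to 0.276 CPM, and Mcam, Eng and Nes shared their highest primary level with the endothelial-like cells that carry it. The endothelial-like cells held 2.46% of the primary Mcam, 6.07% of the Eng and 2.74% of the Nes UMIs. Without the small classes and the shallow cultured clusters, the log2 ratios were -2.51, 0.75 and 2.22, against -2.55, 0.63 and 2.21. The part of the endothelial-like cells alone was not tested. Of the 7 other Ly6 genes counted, Ly6e went from 22.5 to 80.9 CPM and Ly6c1 from 3.63 to 9.03 CPM, both in the direction of Ly6a, and the remaining 5 were under 1 CPM in both libraries.

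**Figure D5:**
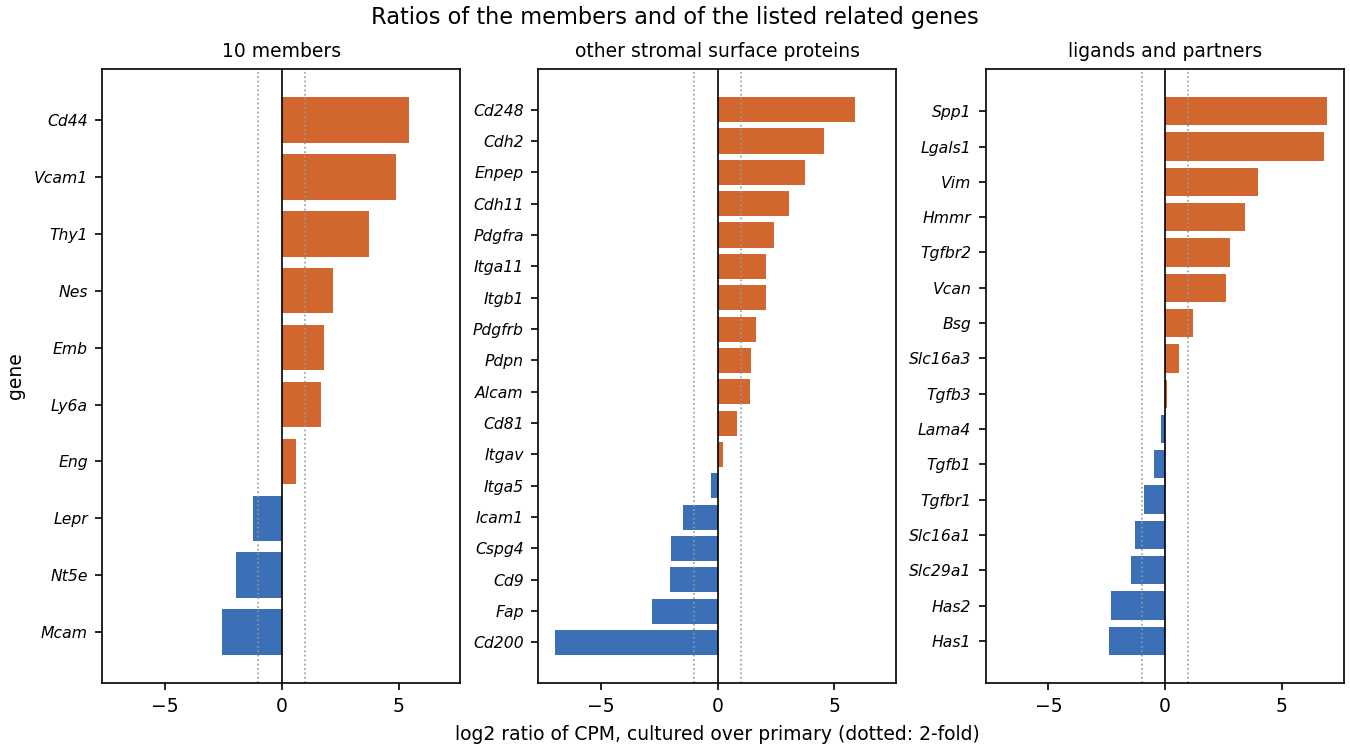
Log2 ratio of CPM, cultured over primary, for the 10 members (left), 18 other stromal surface genes (middle) and 16 ligands and partners (right) with at least 10 CPM in either library for the last 2 lists. Orange bars are higher and blue bars lower in the cultured library, dotted lines mark 2-fold, and the members run from -2.55 for Mcam to 5.46 for Cd44.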

How the data were processed

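The files held raw counts of UMIs by gene and barcode, deposited by the authors as whole numbers without normalisation, for 1 primary and 1 cultured library. The authors had made them with Cell Ranger 7.0.0 on GRCm38, and had then filtered cells by UMIs, detected genes and mitochondrial proportion, at cut-offs not given in the sources used here. Barcodes under 500 genes, under 1000 UMIs or over 10% mitochondrial UMIs were left out. Counts were summed over kept cells and scaled to CPM, and a log2 ratio was formed with an exact conditional interval. Counts have exact Poisson and shares exact binomial (Clopper-Pearson) intervals. No test was run, since each group was 1 library. The depth, 137148874 and 330129909 UMIs, leaves little counting error for all but Thy1, Vcam1 and Lepr in the primary library.

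Scrublet's automatic threshold called 0 primary and 1 cultured doublets and had not worked, so possible doublets were kept and the highest scores were left out as an alternative. Each library was clustered alone (scanpy 1.11.5, leidenalg 0.10.2, 20 neighbours, 10 components, resolution 0.5) without the members and the related genes. A class name needed at least 3 of its markers at 50 CPM and 4-fold over the other cells, or, for chondrocyte-like cells, at least 3 markers at 1000 CPM. Ratios, thinning and correlations were tested on simulated data. TMM factors came from edgeR 4.0.16. The members, the related lists and the markers were chosen with earlier results of these data known. All members are named, and related genes were named from their lists. Coordinates are from GENCODE M21.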

Additional observations from a re-analysis of the deposited data

Results flagged for a closer look

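The barcodes that the cell filter left out, which entered no comparison, also held UMIs of the markers. The 150 primary barcodes left out held 99 UMIs of the 10 markers among 210140 UMIs in all, and 63 of these were Nt5e. The 5460 cultured barcodes left out held 5856 among 6298068 UMIs, with Cd44 at 529.7 CPM, Ly6a at 142 CPM, Emb at 108 CPM and Thy1 at 6.99 CPM. Nt5e (59.7 CPM), Mcam (3.49 CPM) and Lepr (4.29 CPM, 27 UMIs) were higher there than in the kept cultured cells. Lepr also lay above its level in the kept primary cells, Nt5e and Mcam below theirs. With every barcode counted, their log2 ratios were -1.94, -2.53 and -1.13. The sums of 99 and 5856 UMIs lay above the 3 counts that a count of 0 allows. Whether these barcodes were damaged cells or free RNA was not tested.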

How the results depend on the processing

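The log2 ratio of every member kept its sign under 10 other settings: every barcode, a stricter cell filter, only cells with at least 5000 UMIs, the highest doublet scores left out, the main clusters alone, TMM scaling, totals without mitochondrial and ribosomal protein genes, each cell weighing the same, and, added after seeing the data, without the shared barcodes and without the Ptn and Itga8 cluster. Thy1 ranged from 2.65 to 4.54, Vcam1 from 4.71 to 5.63, Cd44 from 5.27 to 5.68, Mcam from -2.76 to -2.11 and Nt5e from -2.16 to -1.90. With TMM scaling, 2 members were lower by 4-fold or more after culture, against 6.70% of 9069 genes. Of the genes past 2-fold, 58.5% in place of 68.5% were then higher. With a minimum of 1 CPM (12839 genes), 1615 genes were higher by 4-fold or more (12.6%), 960 lower by as much (7.48%), 3716 higher by 2-fold or more (28.9%) and 1936 lower by as much (15.1%). With no minimum (17307 genes) these were 2011 (11.6%), 1939 (11.2%), 4594 (26.5%) and 3628 (21.0%), so that the background for lower members rose from 5.73% and 12.5%. The share of cells with Thy1, Eng and Nt5e together in the primary library was 0 at 2000 UMIs per cell. Without thinning it was 0.0341% of primary and 3.07% of cultured cells, and 9 in place of 7 members were found in a larger share of cultured cells. Depth was then unmatched and the share of all genes so found was not computed, so nothing about the members is read from this count. No library could be left out with 1 per group, and no paired analysis was possible because the groups have 1 library each. Donor, culture and library are joined in every ratio, low counts limit Thy1 and Vcam1 in the primary library, and the names of the clusters rest on markers.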
